A study of Danio rerio with 12 samples.

Results

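In larvae mutant for yap alone, 24 of 25473 genes were chosen for a raised level. Each stood above both the yap taz mutant and WT in every library and by a minimum difference of means. The members were chosen by their measured level, the log2 of CPM (counts scaled to a common library total and by a TMM factor, with a prior count of 2). A member had a mean of at least 1 over the 12 libraries and had all 4 yap mutant values above the other 8 values. Its yap mutant mean also lay at least 0.4, a ratio of 1.32, above each of the other means. Of all genes, 18227 met the mean level and 19493 passed the filter on low counts, among them all 24 members. The taz gene itself, WWTR1, met the rule too and was left out by name, because 1 of the genotypes carries a mutation in it.

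The study compared polyadenylated RNA from zebrafish larvae at 3 days post-fertilization in 3 genotypes, each with 4 libraries. These were yap-/- larvae (the yap mutant), larvae homozygous for both the yap and the taz mutation (yap-/-;taz-/-, the yap taz mutant), and wild-type larvae (WT). Both mutants therefore lack intact yap and differ from each other by taz. The sources used here give neither the alleles nor the number of larvae per library nor their clutches. The spread behind each p-value is therefore that between libraries, which may be technical. Total counts were 7028251 to 8657381 per library.

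Yap and its relative Taz, which the gene WWTR1 encodes, are transcriptional co-activators that bind TEAD factors and switch on genes of growth, adhesion and tissue repair. The kinases of the Hippo pathway restrain both by keeping them in the cytoplasm. The proteins overlap in function, and fish that lack both are more severely affected than fish that lack Yap. RNA here came from whole larvae, so fewer cells of a type and less RNA per cell cannot be told apart.

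The targeted genes were read first. YAP1 (ENSDARG00000068401) gave 69.8, 51.7, 60.8 and 57.1 CPM in yap mutant larvae, 64.6, 73.1, 69.2 and 72.6 CPM in yap taz mutant larvae and 89.3, 88.3, 78.3 and 97.8 CPM in WT. Every mutant library lay below every WT library, and the fold changes over WT were -0.56 on the log2 scale in the yap mutant (adjusted p = 0.00149, edgeR quasi-likelihood test) and -0.34 in the yap taz mutant (adjusted p = 0.0126). WWTR1 (ENSDARG00000067719) gave 11.3, 9.51, 9.22 and 11.4 CPM in yap mutant larvae, 4.48, 5.39, 5.76 and 6.61 CPM in yap taz mutant larvae and 8.34, 5.40, 7.86 and 6.51 CPM in WT. The yap taz mutant libraries overlapped those of WT, and WWTR1 did not pass the test between them (log2 fold change -0.35 ± 0.17 SE, adjusted p = 0.156). A transcript level does not report a mutation that leaves the transcript in place.

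Few genes peaked in the yap mutant. With the same rule applied to each genotype in turn, 24 genes were highest in the yap mutant, 346 in the yap taz mutant and 356 in WT. Turned round, 8 genes were lowest in the yap mutant, 448 in the yap taz mutant and 723 in WT. Over all tested genes the yap mutant mean was the middle one of the 3 in 53.73%, the highest in 23.35% and the lowest in 22.92%.

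**Figure D1:**
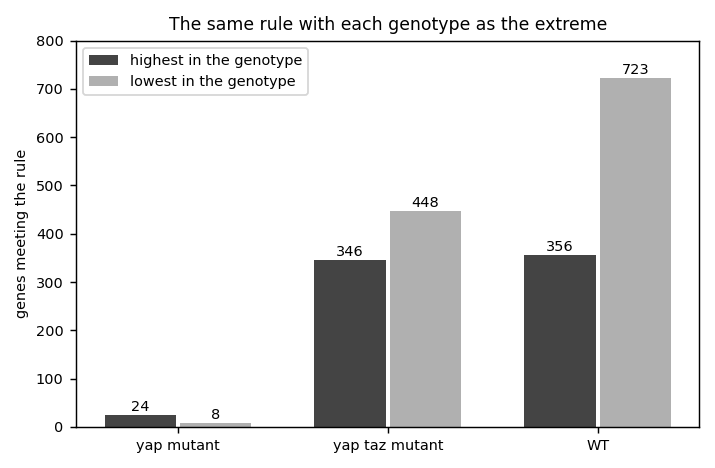
Number of genes meeting the rule with each genotype as the extreme one, for genes highest (dark bars) and lowest (light bars) there. The yap mutant has 24 and 8 genes, against 346 and 448 in the yap taz mutant and 356 and 723 in WT.

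The members were mostly genes of low count. The mean count per library ran between 15.5 and 1069, with a median of 44.2 and a lowest single count of 4. Mean level in the yap mutant was under 5 CPM in 11 members, 5 to 25 CPM in 10 and over 25 CPM in 3. The median difference in mean log2 CPM was 0.65 between the yap mutant and the yap taz mutant and 0.54 between the yap mutant and WT, both fixed in sign by the choice of members. The distance between the lowest yap mutant library and the highest of the other 8 was between 0.000172 and 0.55 on that scale. It reached 0.2 in 4 members (ERO1A, si:ch211-153j24.3, NPHS1 and ptgdsb.1). Among the narrow ones were SLC35E4 (0.0077), SRD5A2 (0.015) and sc:d217 (0.018).

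**Figure D2:**
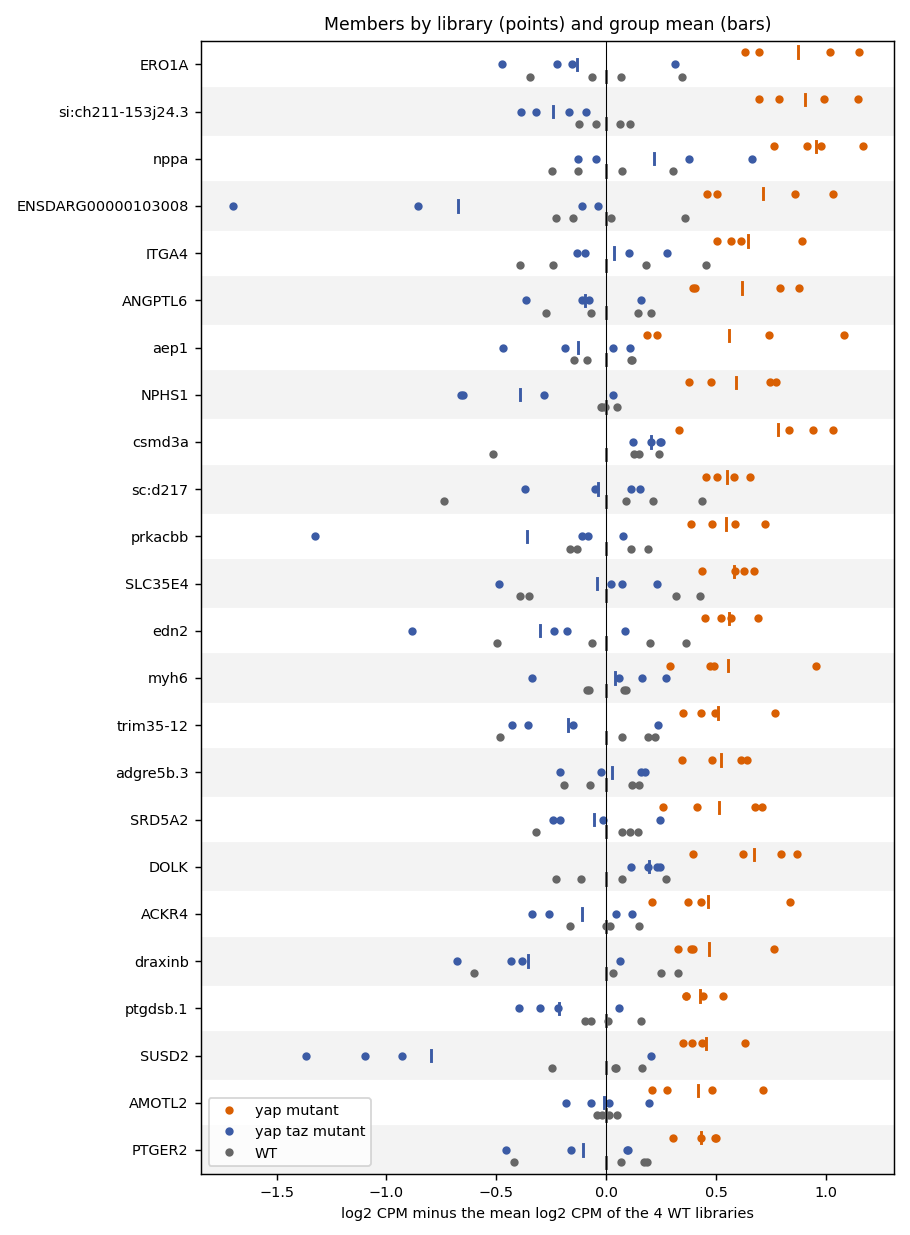
The 24 members in each library, as log2 CPM (without a prior count) minus the mean of the 4 WT libraries; points are libraries, short bars are group means, with the yap mutant in orange, the yap taz mutant in blue and WT in grey. Orange points lie right of all others in each row, with a tie in draxinb, while blue and grey points overlap in all 24 members.

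The members known from heart and vessels were nppa, myh6 and edn2. nppa (ENSDARG00000052960), which encodes the atrial natriuretic peptide released by stretched heart muscle, had 17.6, 21.0, 15.9 and 18.4 CPM in yap mutant larvae, 9.08, 14.8, 8.57 and 12.2 CPM in yap taz mutant larvae and 7.90, 8.55, 9.85 and 11.6 CPM in WT. The lowest yap mutant library was thus just above the highest yap taz mutant library, and the other groups overlapped. myh6 (ENSDARG00000090637), a cardiac myosin heavy chain, had 15.4, 11, 9.73 and 11.2 CPM in yap mutant larvae, 6.29, 8.28, 9.61 and 8.91 CPM in yap taz mutant larvae and 8.45, 8.42, 7.48 and 7.52 CPM in WT. Its margin was narrow, since library 3 of the yap mutant and library 3 of the yap taz mutant nearly met, and 3 identifiers share the symbol. edn2 (ENSDARG00000070578), an endothelin and so a vasoactive peptide, averaged 3.29 ± 0.236 CPM in the yap mutant, 1.86 ± 0.480 CPM in the yap taz mutant and 2.29 ± 0.558 CPM in WT (SD, n = 4 each).

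The members of prostaglandin signalling were ptgdsb.1 and PTGER2, with a kinase of cyclic AMP signalling beside them. ptgdsb.1 (ENSDARG00000027088), a lipocalin-type prostaglandin D synthase, had 38.5, 40.7, 38.5 and 43.4 CPM in yap mutant larvae, 22.8, 25.8, 31.2 and 24.3 CPM in yap taz mutant larvae and 33.5, 28.6, 28.1 and 30.1 CPM in WT. The yap mutant libraries were close together and, as the rule required, clear of the rest. A receptor for prostaglandin E, PTGER2 (ENSDARG00000011434), averaged 5.47 ± 0.339 CPM in the yap mutant, 3.81 ± 0.658 CPM in the yap taz mutant and 4.11 ± 0.739 CPM in WT. prkacbb (ENSDARG00000059125), a catalytic subunit of protein kinase A, the enzyme that acts downstream of cyclic AMP, had 20.7, 22.3, 19.5 and 24.5 CPM in yap mutant larvae, 13.8, 14.1, 15.7 and 5.94 CPM in yap taz mutant larvae and 13.6, 16.1, 17 and 13.2 CPM in WT. Library 4 of the yap taz mutant was far below its group.

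Enzymes and carriers of the secretory pathway and of steroids were also found. ERO1A (ENSDARG00000015228), which reoxidises protein disulfide isomerase in the endoplasmic reticulum and is known to respond to low oxygen, had 12.7, 9.25, 8.83 and 11.6 CPM in yap mutant larvae, 4.11, 7.10, 4.88 and 5.13 CPM in yap taz mutant larvae and 5.45, 7.24, 5.99 and 4.49 CPM in WT. Of the members it had the largest lesser difference, 0.85, that is the smaller of its differences from the yap taz mutant and WT means. DOLK (ENSDARG00000076991), the kinase that makes the dolichol phosphate on which N-glycans are built, averaged 4.80 ± 0.677 CPM in the yap mutant, 3.43 ± 0.137 CPM in the yap taz mutant and 3.02 ± 0.465 CPM in WT. SLC35E4 (ENSDARG00000009459), a member of the family of nucleotide sugar transporters, averaged 3.10 ± 0.216 CPM in the yap mutant, 2.05 ± 0.404 CPM in the yap taz mutant and 2.14 ± 0.630 CPM in WT. SRD5A2 (ENSDARG00000039067), a steroid reductase that turns testosterone into dihydrotestosterone, had the lowest mean count of the members and averaged 2.46 ± 0.360 CPM, 1.66 ± 0.267 CPM and 1.73 ± 0.239 CPM in yap mutant, yap taz mutant and WT larvae. Another gene with this symbol, ENSDARG00000043587, was more abundant and had its highest mean in WT. Its means were 14.6 ± 5.1, 9.51 ± 1.01 and 23.55 ± 8.73 CPM, in the same order. For that gene edgeR gave a log2 fold change over WT of -1.30 ± 0.26 SE in yap taz mutant larvae (adjusted p = 0.00139). In yap mutant larvae the value was -0.68 ± 0.25 SE (adjusted p = 0.0946, edgeR).

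Members of cell junctions and of the cell surface included AMOTL2, NPHS1 and csmd3a. AMOTL2 (ENSDARG00000061923), an angiomotin-like junction protein that binds Yap and is also among its targets, had 111, 91.9, 96.4 and 130.3 CPM in yap mutant larvae, 75.8, 80.3, 91.1 and 70.0 CPM in yap taz mutant larvae and 82.3, 80.3, 78.4 and 77.4 CPM in WT. The yap mutant libraries were spread out, the WT libraries were nearly equal, and library 2 of the yap mutant was nearly level with library 3 of the yap taz mutant. NPHS1 (ENSDARG00000060758), nephrin of the kidney slit diaphragm, had 5.09, 5.20, 4.22 and 3.94 CPM in yap mutant larvae, 1.94, 2.5, 1.92 and 3.10 CPM in yap taz mutant larvae and 3.00, 3.03, 2.99 and 3.14 CPM in WT. Its yap mutant libraries were above the other 8, as the rule required, with a gap of 0.30 in log2 CPM. Its counts were low, with a mean of 26.6 per library and a lowest single count of 13. csmd3a, a large membrane protein with CUB and sushi domains, averaged 4.99 ± 0.988 CPM in the yap mutant, 3.29 ± 0.131 CPM in the yap taz mutant and 2.91 ± 0.620 CPM in WT.

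Several surface members are best known from blood cells and inflammation. ITGA4 (ENSDARG00000103056), the alpha chain of a leukocyte integrin, had 12.1, 9.63, 9.22 and 9.92 CPM in yap mutant larvae, 7.87, 6.96, 5.91 and 6.07 CPM in yap taz mutant larvae and 8.90, 7.37, 5.49 and 4.94 CPM in WT. adgre5b.3 (ENSDARG00000089904), an adhesion G protein-coupled receptor of the CD97 type, averaged 17 ± 1.57 CPM in the yap mutant, 12.1 ± 1.46 CPM in the yap taz mutant and 11.8 ± 1.31 CPM in WT. As the rule required, its lowest yap mutant library, at 15 CPM, was above the highest of the others, at 13.3 CPM. For both genes the yap taz mutant and WT libraries overlapped widely. ACKR4 (ENSDARG00000040133), a receptor that takes up chemokines without signalling, averaged 8.35 ± 1.63 CPM in the yap mutant, 5.59 ± 0.861 CPM in the yap taz mutant and 6 ± 0.526 CPM in WT. Another gene with this symbol, ENSDARG00000078729, averaged 2.05 ± 1.2, 1.6 ± 0.42 and 0.70 ± 0.34 CPM, in the same order. It did not pass the edgeR test over WT in the yap mutant (adjusted p = 0.056) or the yap taz mutant (adjusted p = 0.0842). Its lowest single count was 3.

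Leukocyte markers were often higher in the yap taz mutant than in WT. Over all tested genes 13.9% were higher and 13.8% lower in the yap taz mutant than in WT. In the yap mutant against WT 5.72% of all 19493 tested genes were higher and 665 genes lower. With the replicate number as a block 8.01% were higher and 1197 genes lower. In the list of macrophage markers, none of them a member, 14 of 25 tested genes were higher and 1 lower in the yap taz mutant than in WT, and 7 were higher and 1 lower in the yap mutant than in WT. The summed level of the list was 2271 to 3037 CPM in the yap mutant, 2407 to 3952 CPM in the yap taz mutant and 1747 to 2321 CPM in WT. That of the neutrophil markers was 151 to 276 CPM in the yap mutant, 257 to 453 CPM in the yap taz mutant and 92.0 to 113 CPM in WT, with 9 of 14 tested genes higher and 1 lower in the yap taz mutant than in WT, and 6 higher in the yap mutant than in WT (7 higher and 2 lower with the replicate number as a block). Their part in the levels of ITGA4, adgre5b.3 and ACKR4 was not tested.

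The members aep1, ANGPTL6 and draxinb encode secreted proteins, and trim35-12 a protein of the cell interior. aep1 (ENSDARG00000039099), a gene for an aerolysin-like pore-forming protein, had the highest counts of the members, with 196, 133, 137 and 248 CPM in yap mutant larvae, 103, 119.7, 126 and 84.5 CPM in yap taz mutant larvae and 106, 110.4, 127 and 127 CPM in WT. The yap mutant libraries fell into a lower pair only just above the highest of the others and a higher pair far above it. ANGPTL6 (ENSDARG00000020265), an angiopoietin-like protein, averaged 4.20 ± 0.734 CPM in the yap mutant, 2.55 ± 0.378 CPM in the yap taz mutant and 2.73 ± 0.4 CPM in WT. draxinb, a secreted axon guidance protein, averaged 3.95 ± 0.580 CPM in the yap mutant, 2.26 ± 0.507 CPM in the yap taz mutant and 2.92 ± 0.756 CPM in WT, and its lowest yap mutant library equalled the highest WT library to the third decimal. trim35-12, of an expanded fish family of tripartite-motif ubiquitin ligases, averaged 10 ± 1.32 CPM in the yap mutant, 6.30 ± 1.37 CPM in the yap taz mutant and 7.12 ± 1.45 CPM in WT.

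The members si:ch211-153j24.3, sc:d217 and ENSDARG00000103008 carry names that give no role. si:ch211-153j24.3 (ENSDARG00000068428), singled out after its values were seen because the gap between its lowest yap mutant library and the highest of the others was the widest of the 24, had 5.71, 4.18, 5.12 and 4.45 CPM in yap mutant larvae, 2.42, 1.97, 2.07 and 2.29 CPM in yap taz mutant larvae and 2.78, 2.5, 2.37 and 2.69 CPM in WT. All 4 yap mutant values were above the other 8, as the rule required, with a gap of 0.55 in log2 CPM. The counts were low, with a mean of 25.6 per library and a lowest single count of 14. sc:d217 averaged 19.6 ± 1.2 CPM in the yap mutant, 13.1 ± 2.05 CPM in the yap taz mutant and 13.9 ± 4.27 CPM in WT, and ENSDARG00000103008, which has no symbol, averaged 2.91 ± 0.566 CPM, 1.21 ± 0.557 CPM and 1.77 ± 0.336 CPM in yap mutant, yap taz mutant and WT larvae.

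The yap taz mutant against WT was the contrast that set no difference for the members. By the edgeR quasi-likelihood test at a Benjamini-Hochberg adjusted p under 0.05 over all 19493 genes, 0 members were higher in the yap taz mutant than in WT, where 13.9% of all tested genes were, and 0 were lower, where 13.8% of all tested genes were. At an unadjusted p under 0.05 there were 0 higher members and 1 lower member, SUSD2. DESeq2 called 0 members in either direction, with the same 0 and 1 at an unadjusted p under 0.05, and limma-voom called 1 lower, also SUSD2. In no member did the 4 yap taz mutant libraries lie clear of the 4 WT libraries, upward (14.5% of tested genes) or downward (14.4%). The rule bears on these counts, since a gene raised in the yap taz mutant above the yap mutant could not become a member. The members also had lower levels than all tested genes, with a median mean log2 CPM of 2.48 against 3.94. Their median SD within the yap taz mutant was larger, 0.25 against 0.17. A change is harder to call in such genes, and no share for genes of like level was computed.

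The means still leaned downward. Both the yap taz mutant and the WT means had served to choose the members, so the lean is given only as a description. The yap taz mutant mean was below the WT mean in 18 members and above it in 6. The median difference was -0.10 in log2 CPM, against 0.01 over all tested genes, which were not chosen in this way. The single differences lay between -0.70 and 0.21. A miss of the threshold does not show equal levels, and the 95% intervals of the log2 fold changes reached from -1.29 at their lowest to 0.64 at their highest. In 22 of the 24 members the interval lay within -1 to 1.

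SUSD2 (ENSDARG00000101452), a membrane protein with sushi domains, was farthest from WT. It had 4.35, 3.80, 3.58 and 3.69 CPM in yap mutant larvae, 1.09, 1.31, 1.48 and 3.24 CPM in yap taz mutant larvae and 2.89, 2.90, 2.37 and 3.14 CPM in WT. Of the yap taz mutant libraries 3 were below all of WT and library 4 was above all of WT. The log2 fold change of the yap taz mutant over WT was -0.67 ± 0.29 SE (adjusted p = 0.0961, edgeR), and without library 4 of the yap taz mutant it was -1.13 (adjusted p = 0.00443). ptgdsb.1 was nearest to the threshold after it in unadjusted p (log2 fold change -0.21 ± 0.10 SE, adjusted p = 0.128, edgeR), and without library 3 of the yap taz mutant it passed (-0.31, adjusted p = 0.0275). At the other end nppa had the largest positive fold change over WT, 0.24 ± 0.18 SE on the log2 scale (adjusted p = 0.348, edgeR). For AMOTL2 the fold change was -0.01 ± 0.11 SE (adjusted p = 0.971, edgeR), with a 95% interval of -0.23 to 0.22.

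**Figure D3:**
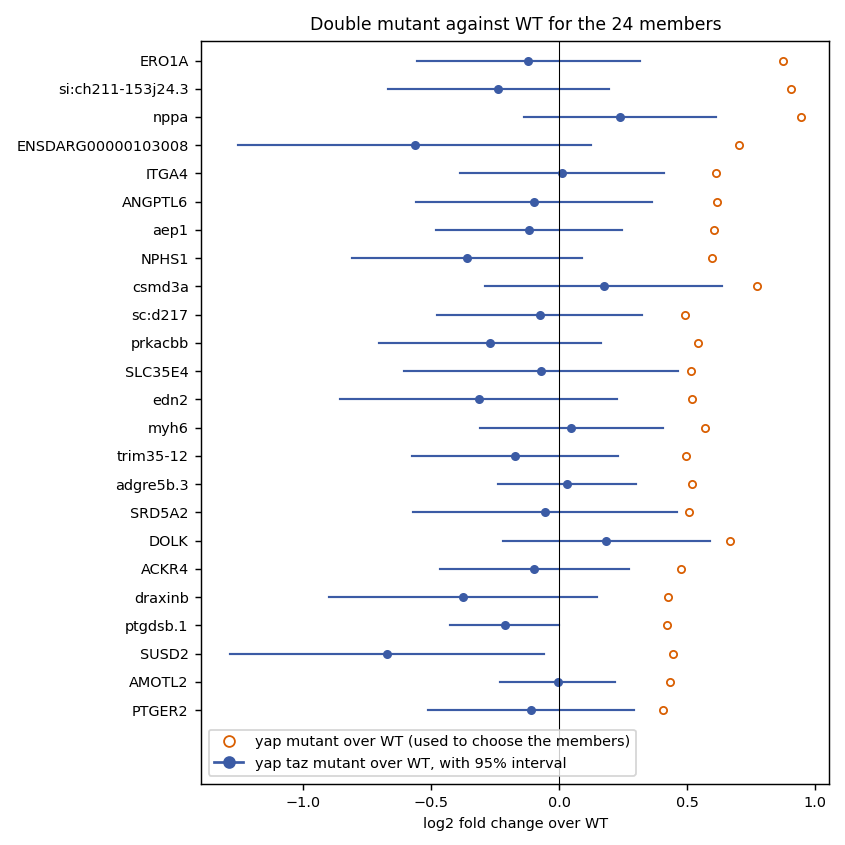
Log2 fold change of the yap taz mutant over WT (filled points, with 95% intervals) for the 24 members, and of the yap mutant over WT (open circles, which chose the members). Filled points lie between -0.67 and 0.24, and the interval lies wholly below 0 in SUSD2 alone.

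The contrasts that chose the members are given as a description. The same fit called 11 members higher in the yap mutant than in the yap taz mutant, where it called 2.26% of all tested genes, and 11 higher in the yap mutant than in WT, where it called 5.72%. In both contrasts 7 members were called (ERO1A, si:ch211-153j24.3, nppa, aep1, adgre5b.3, ptgdsb.1 and AMOTL2), 4 were called against the yap taz mutant alone, 4 against WT alone and 9 in neither. Same-numbered yap mutant and WT libraries deviated together. With the replicate number as a block, 13 members were called against WT, where 8.01% of tested genes were higher. Against the yap taz mutant the blocked fit called 15 members and 4.09% of tested genes. Deviations there were correlated at only 0.051, -0.003, 0.065 and 0.021, so the numbers did not pair these libraries. Both contrasts share the yap mutant libraries.

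Outside the rule, 4 further genes besides WWTR1 were called higher in the yap mutant in both contrasts without the block. These genes are named after their values were seen. HEPH, a copper-dependent iron oxidase, averaged 27.1 ± 11.4 CPM in the yap mutant, 10.5 ± 0.927 CPM in the yap taz mutant and 13.4 ± 4.81 CPM in WT, and STC2, the hormone stanniocalcin, averaged 26 ± 3.35 CPM, 18.5 ± 0.688 CPM and 18.1 ± 3.15 CPM in yap mutant, yap taz mutant and WT larvae. Both failed the rule because libraries overlapped. AQP1, a water channel, and THBS4, a matrix thrombospondin of muscle attachments, failed the minimum difference, with lesser differences of 0.34 and 0.30. THBS4 was 103 ± 6.34 CPM in the yap taz mutant and 139 ± 8.94 CPM in WT, a fall that passed the test (log2 fold change -0.44 ± 0.08 SE, adjusted p = 0.000839, edgeR).

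**Figure D4:**
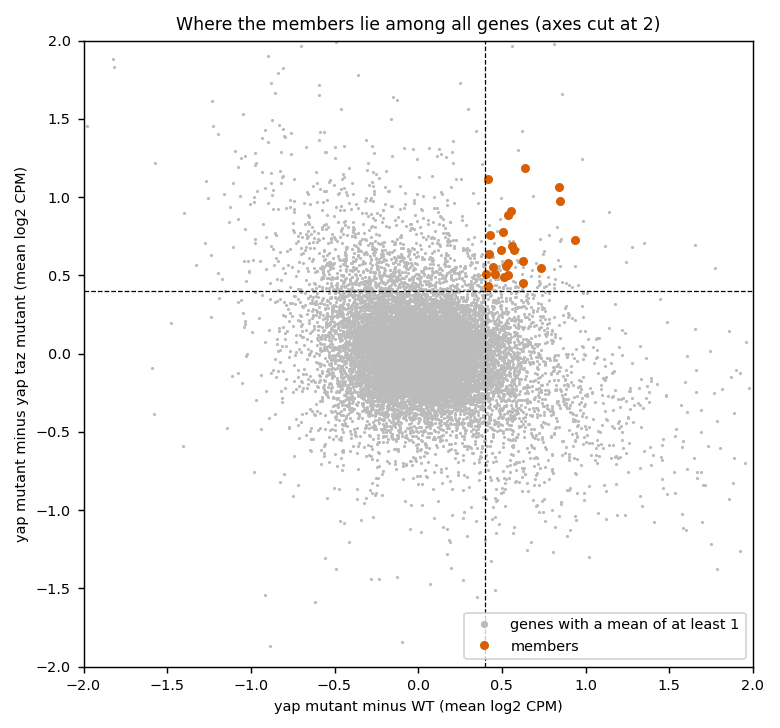
Difference of the yap mutant from WT (x axis) and from the yap taz mutant (y axis) in mean log2 CPM for genes with a mean of at least 1; dashed lines mark the minimum difference of 0.4, members are orange, and genes beyond 2 on either axis are not drawn. Grey points in the upper right corner are WWTR1, left out by name, and genes whose libraries overlapped, 116 in number. The axes share the yap mutant libraries.

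The threshold cut through a continuous range. Just inside were PTGER2, with a lesser difference of 0.408, and AMOTL2, with 0.418. Just outside were KCNMB2, a potassium channel subunit, with 0.3998, and CPAMD8, a protein of the complement and macroglobulin family, with 0.393. Beyond the 24 members and WWTR1, 116 genes met the level and the difference but had overlapping libraries, and 45 genes had no overlap but a lesser difference under 0.4.

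The yap mutant libraries did not contribute equally. The mean of the members over the WT mean was 0.66, 0.56, 0.44 and 0.60 in log2 CPM in libraries 1 to 4 of the yap mutant, against -0.19, -0.07, -0.17 and -0.09 in those of the yap taz mutant. Library 3 was the lowest yap mutant library in 12 of the 24 members, where it was the lowest in 29.56% of all tested genes. It was the highest in 1 member (29.2% of all tested genes). Without library 3 of the yap mutant the rule found 86 genes, which included 22 of the 24.

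The members were looked up in lists of pathways and cell types. Of 48 gene lists, chosen with earlier results of these data known, 44 held no member, 3 held 1 and the heart list held nppa and myh6. ERO1A stood in the hypoxia list, NPHS1 in that of ionocytes and kidney and AMOTL2 in that of Yap and Taz targets, and 19 members stood in none. The lists held 5 of the 24 members, and 1650 of the 25473 genes in the table. In the yap taz mutant against WT, 10 of 31 tested hypoxia genes were higher and 1 lower, 13 of 43 ionocyte and kidney genes were higher and 10 lower, and 12 of 39 Yap and Taz targets were higher and 3 lower. Over all tested genes the shares there were 13.9% higher and 13.8% lower. In the yap mutant against WT the counts were 6 higher and 1 lower for hypoxia, 7 and 3 for ionocytes and kidney, and 8 and 1 for the targets. Of all 19493 tested genes, 1115 were higher and 665 lower in that contrast. With the replicate number as a block the list counts were 10 and 1, 11 and 4, and 10 and 2, and those over all tested genes were 1561 and 1197.

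The heart genes around nppa and myh6 moved in several patterns. Of 26 tested heart genes, 3 were higher and 13 lower in the yap taz mutant than in WT, where 13.9% and 13.8% of all tested genes were. The median log2 fold change was -0.31, against 0.01 over all tested genes. In the yap mutant against WT 5 were higher and 0 lower, with a median of -0.04. Over all 19493 tested genes 5.72% were higher and 665 genes were lower in that contrast. Among the 5 heart genes were nppa and myh6, which were chosen for their high values in the yap mutant. With the replicate number as a block 5 heart genes were higher and 3 lower, where 8.01% of all tested genes were higher and 1197 genes lower. The 3 higher in both mutants were nppb, a natriuretic peptide, gata4, a cardiac transcription factor, and tnnt2c, a troponin. nppb averaged 2.97 ± 0.629 CPM in the yap mutant, 2.25 ± 0.237 CPM in the yap taz mutant and 0.920 ± 0.122 CPM in WT, and its log2 fold change in the yap taz mutant over WT was 1.27 ± 0.26 SE (adjusted p = 0.00176, edgeR).

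Heart genes that fell in the yap taz mutant included genes of the contractile apparatus, which also make up much of the heart list. MYL7, a myosin light chain of heart muscle, averaged 14.4 ± 3.19 CPM in the yap taz mutant and 31.9 ± 3.00 CPM in WT (log2 fold change -1.15 ± 0.15 SE, adjusted p = 2.86e-05, edgeR), with 27.9 ± 4.31 CPM in the yap mutant. A second gene named MYH6 (ENSDARG00000079564) averaged 57.2 ± 15.5 CPM in the yap taz mutant and 88.7 ± 10.9 CPM in WT (-0.64 ± 0.16 SE, adjusted p = 0.00607, edgeR), with 94.1 ± 13.0 CPM in the yap mutant. The muscle factor CSRP3 fell to 0.760 ± 0.377 CPM in the yap taz mutant, against 2.75 ± 0.284 CPM in WT (-1.83 ± 0.32 SE, adjusted p = 0.000534, edgeR). In the yap mutant CSRP3 was also below WT, at 1.45 ± 0.366 CPM (-0.91 ± 0.28 SE, adjusted p = 0.055, edgeR). Its counts were low, with a lowest single count of 2. The summed level of the heart list was 1053 to 1098 CPM in the yap mutant, 812 to 964 CPM in the yap taz mutant and 1037 to 1126 CPM in WT. The part of heart size or heart cell number in the levels of nppa and myh6 was not tested.

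**Figure D5:**
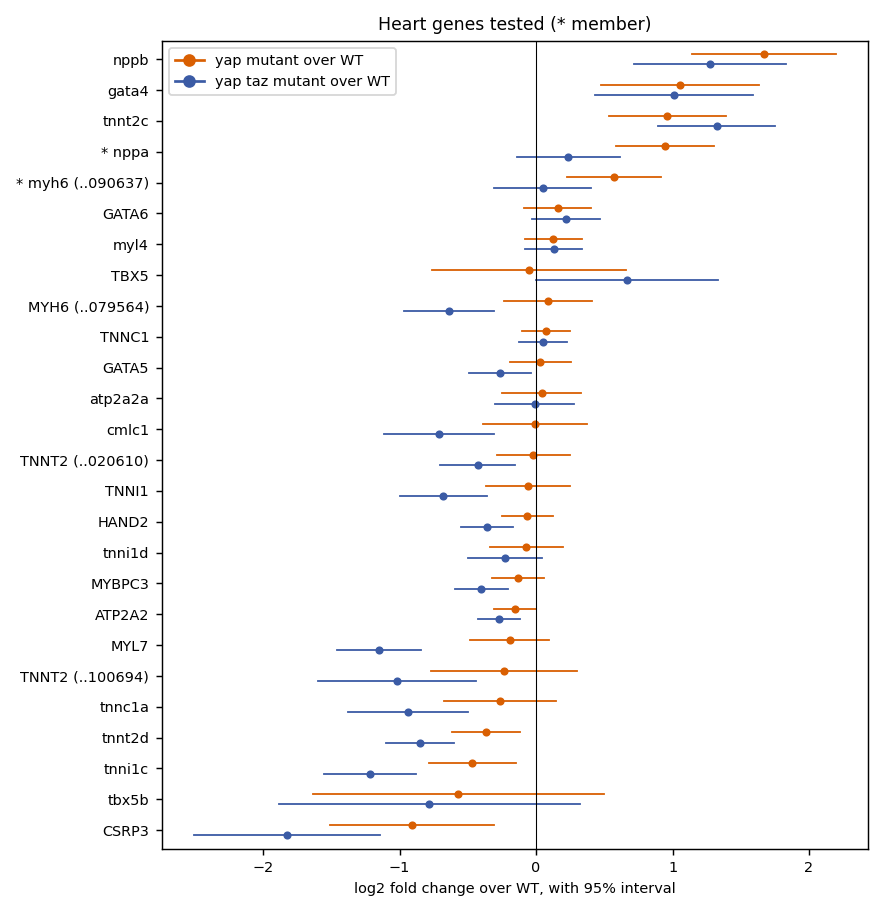
Log2 fold change over WT with 95% interval for the 26 heart genes tested, in the yap mutant (orange) and the yap taz mutant (blue); a star marks the members nppa and myh6, and partial identifiers separate genes that share a symbol. Orange lies right of blue in both members, as their choice requires, while nppb, gata4 and tnnt2c are right of 0 in both mutants and MYL7, tnni1c and CSRP3 are far left of 0 in the yap taz mutant.

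Relatives and partners of the members, grouped after values were seen, were also read. Among 76 tested the yap mutant mean was the highest in 22, where it was the highest in 23.35% of all tested genes. Of the 76, 17 were higher and 10 lower in the yap taz mutant than in WT, where 13.9% and 13.8% of all tested genes were. amotl2b, the paralogue of AMOTL2, was 59.99 ± 13.7 CPM in the yap mutant, 72.0 ± 4.42 CPM in the yap taz mutant and 29.9 ± 2.87 CPM in WT. It rose in the yap taz mutant over WT (log2 fold change 1.27 ± 0.13 SE, adjusted p = 3.46e-06, edgeR). It also rose in the yap mutant over WT (1.01 ± 0.13 SE, adjusted p = 0.000162, edgeR). prkacba, the paralogue of prkacbb, averaged 9.86 ± 1.93 CPM in the yap mutant, 16 ± 1.88 CPM in the yap taz mutant and 7.79 ± 1.52 CPM in WT. It rose in the yap taz mutant over WT (1.03 ± 0.17 SE, adjusted p = 0.000262, edgeR). In the yap mutant it did not pass the test against WT (0.33 ± 0.17 SE, adjusted p = 0.24, edgeR).

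The prostaglandin genes followed several orders. ptgdsb.2, which lies next to ptgdsb.1 in the RefSeq annotation, averaged 9.45 ± 2.71 CPM in the yap mutant, 4.89 ± 0.903 CPM in the yap taz mutant and 10.9 ± 2.34 CPM in WT, and fell in the yap taz mutant against WT (log2 fold change -1.15 ± 0.23 SE, adjusted p = 0.00125, edgeR). The other gene named PTGER2 (ENSDARG00000037033) rose in the yap taz mutant over WT (0.90 ± 0.22 SE, adjusted p = 0.00553, edgeR). In the yap mutant against WT neither ptgdsb.2 (adjusted p = 0.571, edgeR) nor ENSDARG00000037033 (adjusted p = 0.788, edgeR) passed the test. The cyclooxygenase PTGS2 (ENSDARG00000004539), which makes the precursor of all prostaglandins, averaged 48.3 ± 13.5 CPM in the yap mutant, 74.7 ± 10 CPM in the yap taz mutant and 20.6 ± 2.28 CPM in WT. It rose over WT in the yap taz mutant (1.86 ± 0.17 SE, adjusted p = 9.07e-07, edgeR) and in the yap mutant (1.23 ± 0.17 SE, adjusted p = 0.000258, edgeR). Its mean was highest in the yap taz mutant, while those of ptgdsb.1 and the member PTGER2 were highest in the yap mutant.

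Beta chains that pair with the ITGA4 product differed in order. Of 4 genes named ITGB1, 3 had their highest mean in the yap mutant, as with 82.9 ± 10.9 CPM in the yap mutant, 73.3 ± 4.74 CPM in the yap taz mutant and 71.9 ± 11.5 CPM in WT for ENSDARG00000071863. The libraries of that gene overlapped between genotypes. Another of the 3, ENSDARG00000104484, had nearly equal mutant means and rose in the yap taz mutant over WT (log2 fold change 0.41 ± 0.13 SE, adjusted p = 0.0252, edgeR). It also rose in the yap mutant over WT (0.43 ± 0.13 SE, adjusted p = 0.045, edgeR). ENSDARG00000022689 was highest in WT and fell in the yap taz mutant against WT (-0.74 ± 0.15 SE, adjusted p = 0.00144, edgeR). In the yap mutant it did not pass the test against WT (-0.23 ± 0.14 SE, adjusted p = 0.325, edgeR). itgb7 averaged 2.94 ± 1.33 CPM in the yap mutant, 5.86 ± 0.769 CPM in the yap taz mutant and 1.01 ± 0.102 CPM in WT. It rose in the yap taz mutant over WT (log2 fold change 2.51 ± 0.30 SE, adjusted p = 1.56e-05, edgeR). In the yap mutant it rose over WT as well (1.52 ± 0.32 SE, adjusted p = 0.00838, edgeR). ERO1B, the paralogue of ERO1A, averaged 18.0 ± 2.31 CPM in the yap mutant, 16.2 ± 1.12 CPM in the yap taz mutant and 13.4 ± 1.71 CPM in WT. It rose in the yap mutant over WT (0.43 ± 0.12 SE, adjusted p = 0.0406, edgeR). It did not pass the test between the yap taz mutant and WT (0.27 ± 0.12 SE, adjusted p = 0.120, edgeR).

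Position in the genome grouped few members. In the RefSeq annotation of another assembly, used here for names and neighbours only, 17 members were matched by symbol and 0 of these lay within 20 genes of yap1 or wwtr1. So small a window would seldom hold any of 17 genes, and the remaining members, AMOTL2 among them, were not matched. The count therefore does not tell whether members are linked to the targeted genes. nppa lies beside nppal and nppb, and nppal averaged 4.49 ± 0.408 CPM in the yap mutant, 7.06 ± 0.723 CPM in the yap taz mutant and 4.60 ± 1.04 CPM in WT, a rise in the yap taz mutant over WT (log2 fold change 0.62 ± 0.18 SE, adjusted p = 0.0159, edgeR). Of these neighbours nppb and nppal thus passed the test in the yap taz mutant over WT, and nppa did not. ptger2a lies near ERO1A, but which of the genes named PTGER2 it is cannot be told from the names used here.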

How the data were processed

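Polyadenylated RNA of 12 libraries was measured. The authors deposited raw counts per Ensembl gene, made with STAR 2.3.0e and HTSeq 0.6.0 per the submitters' processing notes. The build, annotation and strand setting, not given in the sources used here, leave counts of overlapping genes and near-identical copies uncertain. Of 25473 identifiers 1049 were 0 throughout and 22531 had a symbol in the supplied list of names.

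Genes were filtered with filterByExpr (minimum count 10, minimum total 15), TMM (trimmed mean of M values) gave the scaling factors, and edgeR 4.0.16 (R 4.3.3) fitted 1 coefficient per genotype to all 12 libraries without a block. Tests were two-sided, SE came from the fit, and p-values were Benjamini-Hochberg adjusted over 19493 genes. A floor of 3 counts equals 0.334 to 0.444 CPM over the libraries and covers counting error only. The alternatives were other scalings, priors, levels and minimum differences, no filter, a filter of 1 CPM in 4 libraries, the 8 libraries alone, the replicate block, each library left out, limma-voom (limma 3.58.1), DESeq2 1.42.0 and a minimum fold of 1.5. The procedure was tested on simulated data, and the outcome is not given here. The rises planted in the yap mutant were larger than any member's lesser difference. The test therefore does not cover rises as small as those of the members.

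Members, gene lists and relatives were chosen with earlier results of these data known. Named genes were members with a gene name by lesser difference, list members, members called between yap taz mutant and WT, and the 2 genes on either side of 0.4. Same-numbered yap mutant and WT libraries, paired by title number alone, had deviations correlated at 0.18, 0.306, 0.282 and 0.388, all over 0.1. The numbers may therefore pair them, but differently numbered libraries were not compared. The fit without a block is still the one reported, with blocked counts beside it where they differ by over 1.5 times or concern the members. Between the yap mutant and the yap taz mutant no correlation was over 0.1. Between the yap taz mutant and WT not every correlation was over 0.1. No promoter sequence was used here.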

Additional observations from a re-analysis of the deposited data

Results flagged for a closer look

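In 4 of the 72 groups of 4 libraries that the members form, 1 library stood apart from its group by Dixon's ratio of the gap to the range at its 95% critical value, which chance exceeds in about 1 of 20 groups. WT library 3 was the lowest for csmd3a (ratio 0.848) and for SRD5A2 (0.838). Library 4 of the yap taz mutant was the lowest for prkacbb (0.867). Library 2 of the yap mutant was the highest for draxinb (0.85).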

How the results depend on the processing

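The number of genes meeting the rule was 60 with a minimum difference of 0.2, 69 with none (chosen after seeing the data), 0 with a minimum of 1 and 8 with a mean level of at least 3, against 24. Leaving out 1 library at a time gave 23 to 86, the highest without library 3 of the yap mutant. Scaling by library size alone gave 16 genes, 14 of them shared with the 24, and the other scalings and priors gave 20 to 23. Of the 24 members 13 met the rule under all 6 scalings and priors, 10 in every leave-one-out and 7 in all of these. The 7 were ERO1A, ANGPTL6, nppa, prkacbb, NPHS1, si:ch211-153j24.3 and adgre5b.3. By contrast draxinb met it in 1 of 6 and 2 of 12, and PTGER2 in 2 of 6 and 8 of 12. SLC35E4 met it in 2 of 6 and 12 of 12, and SRD5A2 and SUSD2 each in 3 of 6 and 10 of 12. Apart from the renewed scaling, leaving out a library cannot add an overlap between libraries. The leave-one-out counts therefore bear on the minimum difference, the mean level and the scaling. In the yap taz mutant against WT 5391 genes were called, 999 with a minimum fold of 1.5 and 4452 to 5731 with 1 library left out. With the replicate number as a block, which the correlations did not pair here, 6123 genes were called. Members called lower there numbered 1 by limma-voom (SUSD2, log2 fold change -0.78, adjusted p = 0.0492) and 0 to 1 with 1 library left out, and members called higher numbered 0 in every alternative. Of 546 values of single genes under 21 alternatives 542 kept their side of the threshold, 3 passed it (SUSD2 and ptgdsb.1), YAP1 lost it with the minimum fold (adjusted p = 1), and 0 called values reversed. Fold changes of 7 uncalled genes, at most 0.08 in size, had the other sign in 19 values. Low counts limit the members, whose median mean count was 44.2.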
